A study of Mus musculus with 4 samples.

Results

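Nicotinic acetylcholine receptors are ligand-gated cation channels assembled from several subunits around a central pore, and acetylcholine opens them by binding at interfaces formed by alpha subunits. The subunit mix sets the receptor type. Muscle receptors contain the products of *Chrna1*, *Chrnb1* and *Chrnd* with either *Chrng* in the embryo or *Chrne* in the adult, autonomic ganglia use *Chrna3* with *Chrnb4* and *Chrna5*, the main brain receptor pairs *Chrna4* with *Chrnb2*, *Chrna7* forms receptors by itself, and *Chrna9* with *Chrna10* forms the receptor of cochlear hair cells. The ganglionic subunits are typical of sympathetic neurons and adrenal chromaffin cells, which descend from the neural crest.

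Here 10 subunit genes, *Chrna1*, *Chrna3*, *Chrna4*, *Chrna5*, *Chrna7*, *Chrna9*, *Chrnb1*, *Chrnb2*, *Chrnb4* and *Chrng*, were taken by symbol from the 52636 genes of the count files, and each symbol matched exactly 1 gene. The other 6 nicotinic subunit genes of the mouse (*Chrna2*, *Chrna6*, *Chrna10*, *Chrnb3*, *Chrnd* and *Chrne*) are given for comparison, so that all 16 are covered. RNA-seq was made from tdTomato+ cells sorted from embryonic kidneys at about E12.75, close to 48 h after tamoxifen, with 2 control libraries (Eya1CreER/+;tdTomato) and 2 *Eya1*cKO libraries (Eya1CreER/+;Eya1fl/fl;R26-tdTomato). Both genotypes carried the Eya1CreER allele and received tamoxifen, so the CreER allele was shared by all 4 libraries, and recombination was limited to cells that expressed *Eya1* and were reached by the drug. The dissociated cells were pooled ahead of the sort, and each library of a genotype was its own portion of 5000 cells from the same sort, so the p-values measure only the spread between these portions, which may be technical.

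*Eya1*, the deleted gene, had 6612 and 6420 reads in the control libraries and 377 and 219 reads in the *Eya1*cKO libraries (values are given in the order of their replicate numbers, controls first), a log2 fold change of -3.60 (SE 0.18, edgeR adjusted p = 0.00019), so the libraries matched their labels. Gene reads came to between 17457452 and 37999342 per library and were fewer in both *Eya1*cKO libraries, in which 21455 and 20538 genes had a read against 26486 and 27091 in the controls. Reads on no gene made up 22.7% and 20.9% of the recorded reads in the *Eya1*cKO libraries against 13.9% and 12.9% in the controls. The 8 nephron progenitor markers summed to 1327 and 1308 CPM (reads scaled to a library of 1000000) in the controls and to 211 and 204 CPM in *Eya1*cKO, and all 8 fell, with the smallest p for *Pax2* (log2 fold change -2.20), *Eya1* and *Six2* (-4.44). These 8 include *Eya1* (189 and 171 CPM in the controls), whose fall as the deleted gene is given by the design. Over all tested genes 5.15% rose and 4.41% fell (edgeR adjusted p under 0.05). In the same libraries 6 of 6 adrenal cortex markers rose (*Hsd3b1* 9.77, *Nr5a1* 5.56 and *Cyp11b1* 6.35 on the log2 scale, the first of which reached the test only through its *Eya1*cKO reads), as did 5 of 6 podocyte markers (*Podxl* 2.31, *Nphs1* 2.66, *Synpo* 2.06), 4 of 6 renal stroma markers (*Col1a1* 1.15, *Pdgfrb* 0.91, *Tcf21* 0.65) and 6 of 6 endothelial markers (*Cdh5* 0.82, *Emcn* 1.05, *Kdr* 0.80). Of 6 ureteric bud markers 2 fell (*Calb1* -2.19, *Ret* -1.89), and none of the 4 tested blood and macrophage markers passed, by edgeR or DESeq2, with 0 of them at an unadjusted p under 0.05. These are bulk libraries, in which fewer cells of a type and less RNA per cell cannot be told apart.

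No nicotinic gene of the set passed the test for a genotype effect. Of the 10 genes, 7 had enough reads to be tested with edgeR's quasi-likelihood test, and 0 of the 7 had an adjusted p under 0.05, against 9.56% of all 19041 tested genes called in either direction (5.15% higher and 4.41% lower in *Eya1*cKO). DESeq2 gave an adjusted p to the same number of members and called 0, against 15.0% of the genes it tested. At an unadjusted p under 0.05 there were 2, *Chrna3* and *Chrnb1*, both with higher values in *Eya1*cKO, and 28.8% of all tested genes (5479) reached that level, so the count does not set the members apart. The median log2 fold change of the 7 tested genes was 1.02 against 0.02 over all genes tested, but this median leaves out the 3 genes that had no read in either *Eya1*cKO library and were too low to be tested.

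**Figure D1:**
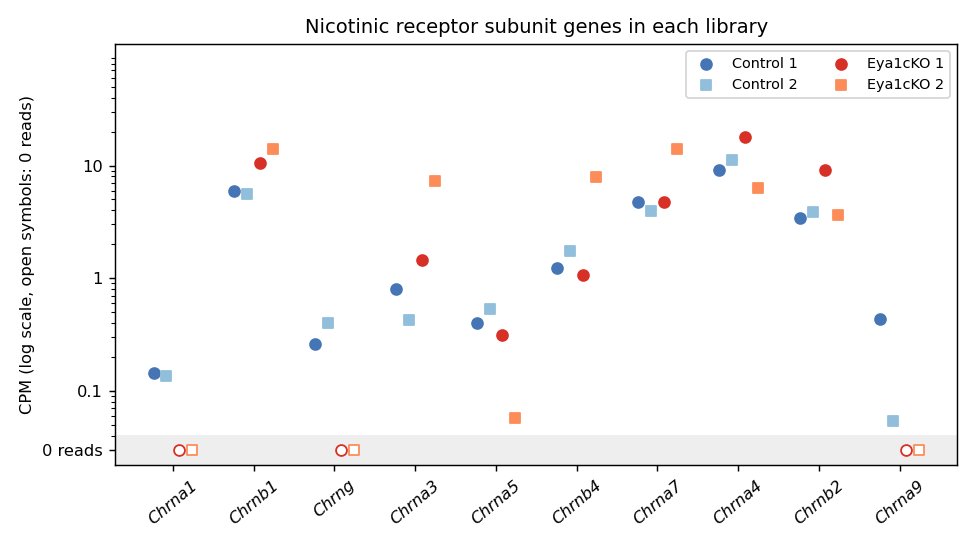
CPM of the 10 nicotinic subunit genes in the 4 libraries (log scale, one column per gene in order of receptor class; circles are replicate 1 and squares replicate 2, blue control and red or orange *Eya1*cKO; open symbols in the grey band mark 0 reads). The paired control symbols sit close together for most genes, the *Eya1*cKO symbols of *Chrna3* and *Chrnb4* lie 5-fold and 7.4-fold apart, and *Chrna1*, *Chrng* and *Chrna9* have no read in either *Eya1*cKO library.

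By position of the libraries alone, 3 members had both *Eya1*cKO values above both control values (*Chrna3*, *Chrna7* and *Chrnb1*), 4 had both below (*Chrna1*, *Chrna5*, *Chrna9* and *Chrng*) and 3 overlapped. Among the 31192 genes with at least 1 read, 16.3% were separated upwards and 28.5% downwards. The 4 lower members had at most 20 reads in any library, a depth at which many genes lost all reads in *Eya1*cKO (shares are given with the muscle-type genes), so their position is no evidence of a fall.

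The promoters of 4 members are shown because these genes span the patterns found: *Chrnb1* had the highest mean per kb of exon in both genotypes, although in control it overlapped *Chrna4*. *Chrna3* and *Chrnb4* are neighbours that had their highest value in the same *Eya1*cKO library, and *Chrna1* had no read in *Eya1*cKO. Each window runs from 250 bases before to 50 bases after the RefSeq gene start on GRCm38.p6, is written 5′ to 3′ on the strand of the gene, which is the minus strand in all 4, and has the matches to the E-box (CANNTG, bound by basic helix-loop-helix factors) and to the GC box (GGGCGG, bound by Sp factors) in capitals, with matches on either strand counted. The windows are chr11:69795888-69796187 for *Chrnb1*, chr9:55026513-55026812 for *Chrna3*, chr9:55048495-55048794 for *Chrnb4* and chr2:73580289-73580588 for *Chrna1*.
Chrnb1: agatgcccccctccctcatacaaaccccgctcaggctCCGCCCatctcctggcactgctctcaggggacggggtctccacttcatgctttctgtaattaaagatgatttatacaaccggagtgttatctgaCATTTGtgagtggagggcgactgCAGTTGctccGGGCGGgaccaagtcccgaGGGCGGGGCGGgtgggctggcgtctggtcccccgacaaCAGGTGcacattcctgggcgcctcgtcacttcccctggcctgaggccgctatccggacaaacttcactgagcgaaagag
Chrna3: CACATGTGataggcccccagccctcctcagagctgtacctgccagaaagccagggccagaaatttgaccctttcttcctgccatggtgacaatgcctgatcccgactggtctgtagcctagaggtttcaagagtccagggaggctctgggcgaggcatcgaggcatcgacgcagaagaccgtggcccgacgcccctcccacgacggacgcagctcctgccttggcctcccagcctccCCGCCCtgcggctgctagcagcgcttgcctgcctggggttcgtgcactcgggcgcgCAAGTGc
Chrnb4: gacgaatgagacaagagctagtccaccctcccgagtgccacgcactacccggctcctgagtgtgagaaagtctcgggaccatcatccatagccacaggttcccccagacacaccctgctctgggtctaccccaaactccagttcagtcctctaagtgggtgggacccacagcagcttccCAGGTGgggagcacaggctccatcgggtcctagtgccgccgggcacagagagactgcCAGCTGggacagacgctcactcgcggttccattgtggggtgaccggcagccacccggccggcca
Chrna1: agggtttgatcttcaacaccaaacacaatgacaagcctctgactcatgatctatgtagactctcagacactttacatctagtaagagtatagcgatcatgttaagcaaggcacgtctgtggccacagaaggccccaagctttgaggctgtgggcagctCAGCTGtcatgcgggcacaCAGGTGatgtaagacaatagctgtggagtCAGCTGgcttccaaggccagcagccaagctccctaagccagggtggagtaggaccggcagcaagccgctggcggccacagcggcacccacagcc
The *Chrnb1* window held 3 E-boxes and 4 GC boxes, of which the last 2 overlap in the letters of 1 capital run. That of *Chrna3* held 3 E-boxes, with an overlapping pair at its start, and 1 GC box. The *Chrnb4* window had 2 E-boxes and no GC box, and the *Chrna1* window had 3 E-boxes and no GC box. Over all 32851 RefSeq windows of this length an E-box occurred in 72.3% and a GC box in 35.7%, so an E-box in a window is the usual state.

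Because the study concerned the repressor element RE1, which REST binds, both conserved parts of that element were searched on both strands in the 13 windows found for 12 of the 16 subunits. The left part (TTCAGCACC), present in 0.371% of all windows, was in none of the 13. The right part (GGACAG), present in 22.2% of all windows, was found in windows of *Chrna5*, *Chrnb4* and *Chrng*. A match or its lack describes only these letters in these 300 bases.

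Among the muscle-type genes, *Chrnb1*, which encodes the beta subunit of the muscle receptor, had higher values in *Eya1*cKO, while *Chrna1*, *Chrng* and *Chrnd* were at 0 there. *Chrnb1* (chromosome 11, 69784036-69795943, minus strand) had 209, 208, 239 and 248 reads, which is 5.99, 5.55, 10.6 and 14.1 CPM. Both *Eya1*cKO libraries lay above both controls and were close to each other, with means of 5.77 ± 0.304 CPM in control and 12.4 ± 2.52 CPM in *Eya1*cKO (SD, n = 2). The log2 fold change was 1.08 (SE 0.42), with an edgeR adjusted p of 0.15 and a DESeq2 adjusted p of 0.11, so *Chrnb1* did not pass.

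*Chrng*, the gamma subunit of the embryonic muscle receptor (chromosome 1, 87204657-87212694, plus strand), had 9 and 15 reads in the controls and 0 in both *Eya1*cKO libraries. Its control levels of 0.258 and 0.401 CPM stood above the limit that 0 reads allow in *Eya1*cKO, 3 reads or 0.133 and 0.171 CPM, with a mean at least 1.9-fold above the higher of these limits, which cover counting error only. *Chrna1*, the alpha subunit that binds acetylcholine in muscle (chromosome 2, 73563215-73580338, minus strand), had 5 and 5 reads in the controls and 0 and 0 in *Eya1*cKO. Its control levels of 0.143 and 0.134 CPM did not exceed the limit of the shallower *Eya1*cKO library, and no difference was detectable at this depth. Neither gene was tested.

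*Chrnd*, the delta subunit, lies 4586 bp before *Chrng* on the same strand and showed the same absence with more reads behind it, 64 and 62 in the controls and 0 and 0 in *Eya1*cKO. Its 1.83 and 1.66 CPM in the controls had a mean at least 10-fold above what 3 reads stand for in the shallower *Eya1*cKO library, a bound that covers counting error only and not the spread between libraries. The edgeR adjusted p was 0.11 and that of DESeq2 was 0.0098, so the call rested on the tool. *Chrnd* reached the test only through its control reads, so its fitted direction is not evidence of a fall. Of the 1810 genes with a control mean of 40 to 80 reads, 60 (3.31%) had no read in either *Eya1*cKO library, whereas this held for 816 of 2612 genes (31.2%) in the range of *Chrng* (10 to 20 reads) and for 1269 of 2730 (46.5%) in that of *Chrna1* and *Chrna9* (5 to 10 reads). *Chrne*, the adult epsilon subunit, had 25, 17, 0 and 5 reads (log2 fold change -2.18, SE 1.35, edgeR adjusted p = 0.33). Like *Chrnd*, it reached the test only through its control reads, so its fitted direction is not evidence of a fall.

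Skeletal muscle markers gave no call. The summed level of the 10 markers was 19.4, 22.9, 21.3 and 17.2 CPM. Of the 6 tested by edgeR, 0 passed, against 9.56% of all tested genes, and 0 reached an unadjusted p under 0.05, against 28.8%. DESeq2 gave an adjusted p to 7 and called 0, against 15.0% of the genes it tested. With so few genes, these counts do not set the list apart. Of the defining factors, *Myf5* had no read in any library, *Myod1* had 5 reads in control 1 and 0 elsewhere, and *Myog* had 0, 2, 65 and 0 reads, so that it was above its limit of detection in *Eya1*cKO 1 only.

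The ganglionic genes *Chrna5*, *Chrna3* and *Chrnb4* form a cluster on chromosome 9, with 2331 bp between *Chrna5* and *Chrna3* and 1591 bp between *Chrna3* and *Chrnb4*. *Chrna3*, the alpha subunit of the ganglionic receptor (55010111-55026562, minus strand), had 28, 16, 33 and 129 reads, or 0.802, 0.427, 1.46 and 7.35 CPM. Neither *Eya1*cKO value reached down to a control value, but these *Eya1*cKO values differed 5-fold from each other, and the means were 0.615 ± 0.265 and 4.41 ± 4.17 CPM (SD, n = 2). Its log2 fold change of 2.72 (SE 1.05) was the highest estimate among the members and did not pass (adjusted p = 0.14 by edgeR and 0.072 by DESeq2).

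*Chrnb4*, the beta subunit that partners *Chrna3* (55028154-55048779, minus strand), had 43, 65, 24 and 138 reads. At 1.23, 1.74, 1.06 and 7.87 CPM, *Eya1*cKO 1 lay below both controls and *Eya1*cKO 2 far above them, so the groups overlapped. The log2 fold change was 1.44 (SE 0.98, edgeR adjusted p = 0.37). *Chrna5*, an accessory subunit that changes the properties of ganglionic receptors without forming them (54980880-55007779, plus strand), had 14, 20, 7 and 1 reads. Its 0.401 and 0.534 CPM in the controls were above the 0.31 and 0.057 CPM in *Eya1*cKO, opposite to its neighbour *Chrna3*, with a log2 fold change of -1.22 (SE 1.04, edgeR adjusted p = 0.48). *Chrna5* reached the test only through its control reads, so its direction is not evidence of a fall.

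Genes listed as neighbours of this cluster gave no call. Of the 6, *Ireb2*, *Hykk*, *Psma4* and *Ube2q2* lie beside it in the mouse, while *Morf4l1* (90091665-90114774) and *Adamts7* (90163069-90208071) lie far from it on the same chromosome and are near the human cluster only. Of all 6, 0 passed by edgeR or DESeq2, against 9.56% and 15.0% of the genes that each tested. An unadjusted edgeR p under 0.05 was found for 0 of them, against 28.8% of all tested genes. The median log2 fold change of the 6 was -0.09. For so short a list these counts do not differ clearly from those shares.

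Most sympathoadrenal markers were higher in both *Eya1*cKO libraries. Of the 10 listed, 8 rose and 0 fell, where 5.15% of all tested genes rose and 4.41% fell. *Stmn2* (318, 361, 282 and 297 reads, log2 fold change 0.62) and *Prph* (44, 23, 93 and 3 reads, 1.36) did not pass, and *Prph* overlapped between the genotypes. The summed level of the 10 was 16.4 and 19 CPM in the controls against 571 and 603 CPM in *Eya1*cKO. *Chga*, a secretory granule protein of chromaffin cells, had 44, 52, 3478 and 3001 reads (log2 fold change 6.93, edgeR adjusted p = 5.5e-05), *Th*, the rate-limiting enzyme of catecholamine synthesis, had 9, 14, 1075 and 950 reads (7.29), and *Chgb* had 68, 190, 4247 and 3132 reads (5.68). The summed level was thus close between the *Eya1*cKO libraries, whereas *Chrna3* and *Chrnb4* were higher in *Eya1*cKO 2. Of the 7 neural crest and Schwann cell markers, 1 rose, *Sox10*, with 0, 5, 83 and 75 reads (log2 fold change 5.74, SE 1.24, edgeR adjusted p = 0.035), and the list summed to 29, 27.5, 40.2 and 30 CPM. *Sox10* and *Th* reached the test only through their *Eya1*cKO reads, so for these genes the read counts are the description and the fitted direction adds no evidence. The part of either cell type in the ganglionic subunit values was not tested.

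*Chrna4* and *Chrnb2*, whose products form the main receptor of the brain, were both high in *Eya1*cKO 1 and not in *Eya1*cKO 2. *Chrna4* (chromosome 2, 181018380-181043546, minus strand) had 322, 420, 403 and 112 reads, or 9.22, 11.2, 17.8 and 6.38 CPM. The control values fell between those of the *Eya1*cKO libraries, with means of 10.2 ± 1.41 and 12.1 ± 8.1 CPM (SD, n = 2) and a log2 fold change of 0.32 (SE 0.49, edgeR adjusted p = 0.71).

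*Chrnb2* (chromosome 3, 89746195-89764632, minus strand) had 119, 144, 205 and 64 reads and, like *Chrna4*, its highest CPM in *Eya1*cKO 1. Its 3.41, 3.85, 9.07 and 3.65 CPM overlapped between the genotypes, with a log2 fold change of 0.88 (SE 0.61, edgeR adjusted p = 0.38). Its value is less certain than those of the other members, because 1365 bp (16.3%) of its exons lie opposite exons of *Adar*, an RNA-editing enzyme gene with 2148, 2467, 794 and 885 reads (log2 fold change -0.60, SE 0.20, edgeR adjusted p = 0.11), and the strand setting of the counting is not stated in the sources used here. No other member shares exons with another gene in the annotation.

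Of the remaining brain-type subunits, *Chrna6* had 25 and 21 reads in the controls and 0 in both *Eya1*cKO libraries, with a control mean at least 3.7-fold above the same limit (adjusted p = 0.11 by edgeR and 0.21 by DESeq2). It too reached the test only through its control reads, and 311 of the 2216 genes with a control mean of 20 to 40 reads (14.0%) had no read in either *Eya1*cKO library. *Chrna2*, at 3, 3, 4 and 0 reads, and *Chrnb3*, at 0, 0, 1 and 0 reads, stayed at or near the limit of detection.

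*Chrna7*, which forms homomeric receptors with high calcium permeability (chromosome 7, 63098692-63212569, minus strand), had 164, 149, 107 and 245 reads. At 4.7, 3.98, 4.74 and 14 CPM, *Eya1*cKO 1 was level with control 1 and only *Eya1*cKO 2 stood apart from the controls. The means were 4.34 ± 0.507 and 9.35 ± 6.53 CPM (SD, n = 2), and the log2 fold change was 1.02 (SE 0.63, edgeR adjusted p = 0.33). *Chrna9*, a subunit of the hair cell receptor (chromosome 5, 65934921-65977326, plus strand), had 15 reads in control 1, 2 in control 2 and 0 in both *Eya1*cKO libraries. Nearly all of its reads thus came from 1 library, and the 0.0534 CPM of control 2 lay under the limits of both *Eya1*cKO libraries, so that no difference was detectable at this depth. Its partner *Chrna10* was split in the same way, with 23 reads in control 1, 1 in control 2 and 0 in *Eya1*cKO, again with control 2 under those limits, and 39% of its exons lie opposite those of *Art1*, which had 0, 13, 0 and 0 reads.

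**Figure D2:**
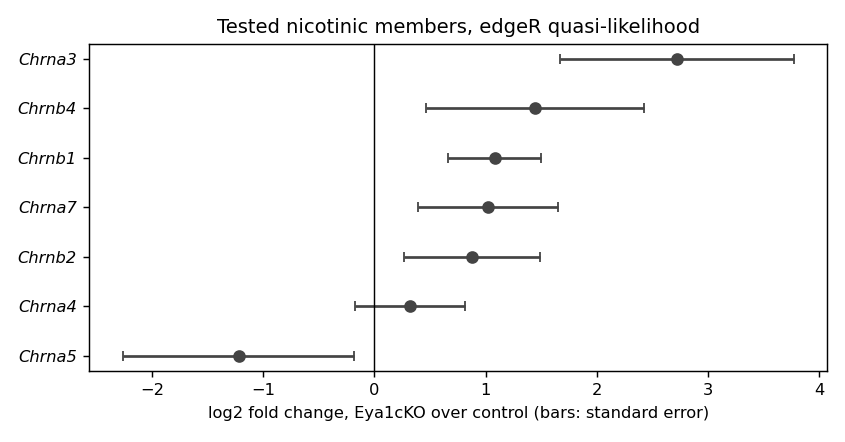
Log2 fold change (*Eya1*cKO over control, x axis) of the 7 nicotinic members that were tested, from the edgeR fit, with bars of 1 standard error. The estimates run from -1.22 for *Chrna5* to 2.72 for *Chrna3*, and the bar of *Chrna4* (0.32, SE 0.49) crosses 0.

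For the 6 members with the most reads, the *Eya1*cKO libraries disagreed more with each other than the controls did. Between the *Eya1*cKO libraries they differed 7.4-fold (*Chrnb4*), 5-fold (*Chrna3*), 2.9-fold (*Chrna7*), 2.8-fold (*Chrna4*), 2.5-fold (*Chrnb2*) and 1.3-fold (*Chrnb1*), and between the controls 1.4-, 1.9-, 1.2-, 1.2-, 1.1- and 1.1-fold. Of the other 4 members, *Chrna5* differed 1.8-fold between the *Eya1*cKO libraries and 1.3-fold between the controls, with values under 3 reads set to 3 reads, while *Chrna1*, *Chrna9* and *Chrng* had no *Eya1*cKO read to compare and *Chrna9* differed 5.4-fold between the controls on that scale. Among all genes with a mean level of 0.8 to 3.2 CPM, the range of *Chrna3* and *Chrnb4* (4079 genes), 29.8% differed more than 2-fold between the controls and 75.3% between the *Eya1*cKO libraries. In the range of *Chrna4*, *Chrna7*, *Chrnb1* and *Chrnb2* (from 3.2 CPM to 4 times that level, 3293 genes) these shares were 5.98% and 46.0%. In that of *Chrna5* (0.2 to 0.8 CPM, 4497 genes) they lay closer, at 45.1% and 59.1%.

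The direction of some members rested on 1 *Eya1*cKO library. Without *Eya1*cKO 1, *Chrna3* (log2 fold change 3.58), *Chrnb4* (2.38), *Chrna7* (1.68) and *Chrnb1* (1.28) passed, but 33.5% of all tested genes did so too. Without *Eya1*cKO 2, when 35.3% of genes passed, *Chrnb1* (0.86), *Chrnb2* (1.30) and *Chrna4* (0.78) were the members that did. *Chrna4* (-0.69) and *Chrnb2* (-0.01) changed sign in the first of these fits and *Chrnb4* (-0.50) in the second, and *Chrnb1* was higher with every library left out. Each of these fits takes the lone *Eya1*cKO library to vary like the controls, which the spread above does not bear out.

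**Figure D3:**
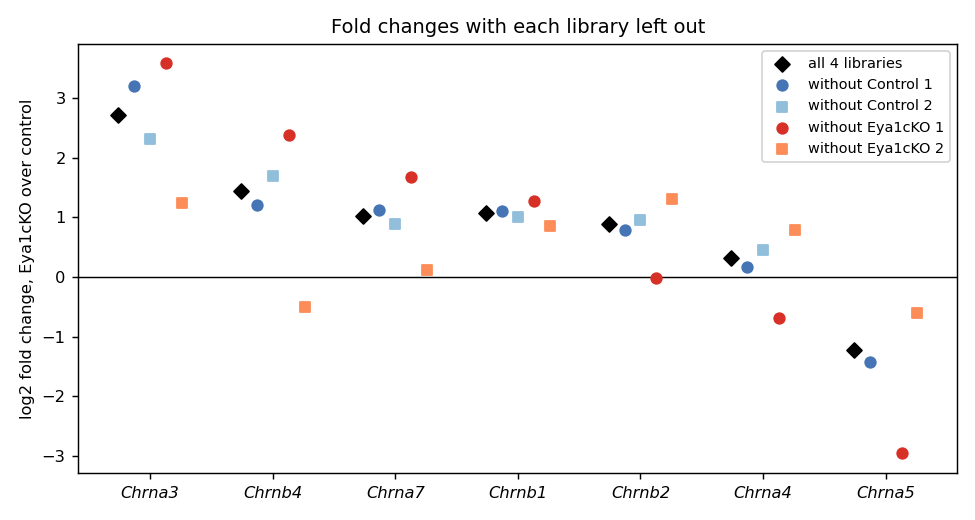
Log2 fold change (*Eya1*cKO over control, y axis) of the 7 tested members with all 4 libraries (black diamonds) and with each library left out in turn (coloured symbols). *Chrnb1* stays between 0.86 and 1.28, whereas *Chrnb4* runs from -0.50 to 2.38 and *Chrna4* from -0.69 to 0.78. *Chrna5* has no value without control 2, where it had too few reads to be tested.

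To compare levels between subunit genes, CPM were divided by exonic length in kb. *Chrnb1* was the highest of the 16 subunits in both genotypes, at 2.28 ± 0.12 CPM per kb in control and 4.88 ± 0.995 in *Eya1*cKO (SD, n = 2). *Chrna4* came next in control at 2.03 ± 0.281 CPM per kb, and its 2 values (1.84 and 2.23) overlapped those of *Chrnb1* (2.36 and 2.19), so these neighbours did not differ beyond their spread. They were followed by *Chrna7* (0.963 ± 0.113), *Chrnd* (0.53 ± 0.0381), *Chrnb2* (0.433 ± 0.037) and *Chrnb4* (0.399 ± 0.0958), the last 2 also overlapping. *Chrne* stood at 0.346 ± 0.11, *Chrna6* at 0.22 ± 0.0377 and *Chrna5* at 0.15 ± 0.0301 CPM per kb. At the low end of the members were *Chrna3* (0.117 ± 0.0503), *Chrna9* (0.0798 ± 0.0879), *Chrng* (0.0791 ± 0.0243) and *Chrna1* (0.0315 ± 0.00156), which rest on 28 reads or fewer per control library. From *Chrnb4* to *Chrne* and from *Chrna5* down to *Chrng*, the control values of neighbours in this order overlapped.

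In *Eya1*cKO the order after *Chrnb1* was *Chrna4* (2.41 ± 1.61), *Chrna7* (2.08 ± 1.45), *Chrnb4* (1.2 ± 1.29), *Chrna3* (0.837 ± 0.791) and *Chrnb2* (0.759 ± 0.458 CPM per kb), and the values of each of these neighbours overlapped. With the longest transcript in place of all exons as the length, *Chrna7* came before *Chrna4*.

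As a share of the summed CPM per kb of the 16 subunits, *Chrnb1* made up 29.6% and 28.8% in the controls and 39.5% and 39.6% in *Eya1*cKO. The muscle-type genes as a class held 43%, 40.5%, 39.5% and 40.8%, a nearly constant share that in *Eya1*cKO 1 consisted of *Chrnb1* alone. The ganglionic class held 7.64%, 9.41%, 6.26% and 25%, high in *Eya1*cKO 2 only. *Chrna7* held 13%, 11.6%, 9.94% and 22%, and the brain class held 31.4%, 38.1%, 44.3% and 12.1%, low in *Eya1*cKO 2 only. The *Eya1*cKO libraries thus had different subunit mixes, and neither the ganglionic nor the brain class separated the genotypes.

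**Figure D4:**
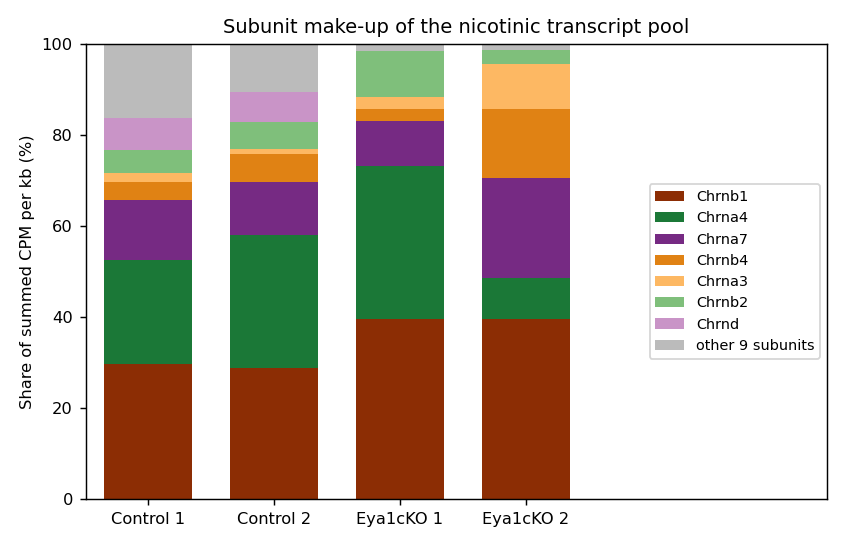
Share (y axis, % of the summed CPM per kb of the 16 nicotinic subunit genes) of each subunit in the 4 libraries, stacked, with the 9 lesser subunits together in grey. *Chrnb1* takes 29.6% and 28.8% in the controls and 39.5% and 39.6% in *Eya1*cKO, *Chrnd* is seen in the controls alone, and *Chrnb4* and *Chrna3* reach 15% and 9.91% in *Eya1*cKO 2.

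Among genes that act on nicotinic receptors, *Lynx1* and *Ly6e* rose. Of 11 assembly factors and modulators, 9 were tested, 2 rose and 0 fell, where 5.15% of all tested genes rose and 4.41% fell, and their median log2 fold change was 0.62 against 0.02 over all genes. *Lynx1*, a membrane-anchored protein of the Ly6 family that dampens nicotinic receptors, had 50, 56, 641 and 487 reads, and its level went from 1.46 ± 0.0451 to 28.1 ± 0.429 CPM (SD, n = 2, log2 fold change 4.26, SE 0.42, edgeR adjusted p = 0.0027). *Ly6e*, another member of that family with known roles outside receptor biology, went from 37.3 ± 2.15 to 86 ± 12.6 CPM (log2 fold change 1.22, SE 0.17, edgeR adjusted p = 0.0078). Both genes had close *Eya1*cKO libraries, unlike most subunits. The chaperones *Ric3* (97, 141, 203 and 44 reads) and *Tmem35a* (336, 447, 208 and 199 reads) overlapped between the genotypes, and *Slurp1* and *Psca* had no read.

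Of the 6 genes for receptor clustering at the neuromuscular junction, 5 were tested. *Agrn*, the matrix protein agrin, which also occurs in kidney basement membranes, rose from 556 ± 5.68 to 900 ± 9.2 CPM (log2 fold change 0.69, SE 0.06, edgeR adjusted p = 0.0014). *Lrp4*, the agrin receptor, which is also expressed in kidney epithelia, fell from 128 ± 2.58 to 51.6 ± 5.73 CPM (-1.33, SE 0.14, edgeR adjusted p = 0.003). *Musk*, the kinase that agrin activates through Lrp4, had 14, 0, 42 and 127 reads and was called by DESeq2 but not by edgeR (adjusted p = 0.076). Without its *Eya1*cKO reads *Musk* would not have reached the edgeR test, so its fitted direction and the DESeq2 call add no evidence to the counts. *Rapsn*, the scaffold under the receptor, had no read in any library. The summed podocyte markers (849 and 874 CPM in control, 2568 and 2648 in *Eya1*cKO), stroma markers (1849 and 1832, 3305 and 3584), endothelial markers (482 and 498, 862 and 903) and adrenal cortex markers (19 and 11.7, 655 and 626) were higher in *Eya1*cKO, as was *Agrn*. The summed nephron progenitor markers and ureteric bud markers (161 and 165, 95.3 and 68.9) were lower, as was *Lrp4*. The part of those cells in either change was not tested.

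Genes of acetylcholine supply and removal gave no call. Of the 7 genes, all tested by edgeR, 0 passed, against 9.56% of all tested genes, and their median log2 fold change was 0.03. DESeq2 gave an adjusted p to 6 of them and called 0, against 15.0% of the genes it tested. An unadjusted edgeR p under 0.05 was found for 1 (*Prima1*, an anchor of acetylcholinesterase), against 28.8% of all tested genes. *Prima1* had 16, 15, 0 and 1 reads and reached the test only through its control reads. Counts this small do not set the list apart from all genes. *Chat*, which makes acetylcholine, had 15, 8, 34 and 3 reads, its vesicular transporter *Slc18a3* had 1, 13, 15 and 21, the choline transporter *Slc5a7* had 20, 27, 0 and 3, and *Ache*, which breaks acetylcholine down, had 70, 81, 76 and 0. These 4 genes had at most 81 reads in any library and shared no direction.

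The other acetylcholine receptors and the wider channel family were also without an edgeR call. Of the 5 muscarinic receptor genes, 2 were tested and 0 passed, and *Chrm3* (38, 67, 122 and 118 reads, log2 fold change 2.04, edgeR adjusted p = 0.10) was the gene with an unadjusted p under 0.05 and was called by DESeq2. Of 23 serotonin, glycine and GABA-A receptor genes of the same Cys-loop family, 13 were tested and 0 passed, while 4 had an unadjusted p under 0.05 and DESeq2 called 3, beside the 28.8% and 15.0% of all genes given above. Their median log2 fold change was 1.03. Beside these, the 6 other nicotinic subunits had 3 genes tested, 0 called by edgeR, 2 at an unadjusted p under 0.05 (*Chrna6* and *Chrnd*) and 1 called by DESeq2 (*Chrnd*).

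**Figure D5:**
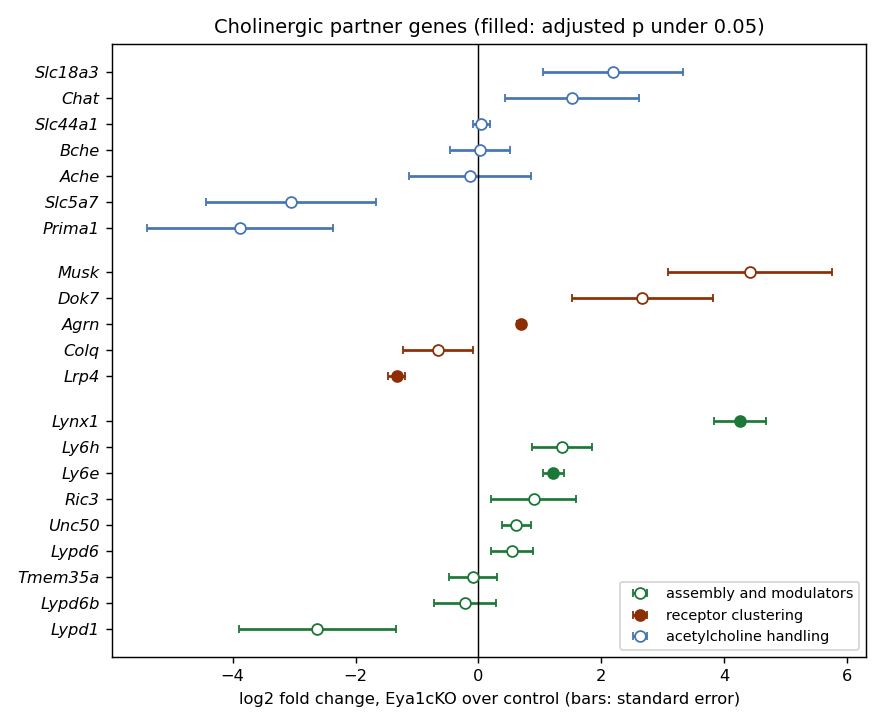
Log2 fold change (*Eya1*cKO over control, x axis) of the tested genes that make and remove acetylcholine (blue), cluster receptors (brown) and assemble or modulate nicotinic receptors (green), with bars of 1 standard error and filled symbols for an edgeR adjusted p under 0.05. *Lynx1* (4.26), *Ly6e* (1.22) and *Agrn* (0.69) lie above 0 and *Lrp4* (-1.33) below it as the filled points.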

How the data were processed

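RNA-seq libraries were made from 5000 sorted tdTomato+ cells each, 2 per genotype. The labels give 6 kidneys per genotype from 4 females, the methods 12 kidneys from 6 embryos of 5 females. The authors prepared strand-specific, random-primed SMARTer libraries, sequenced 75-bp single ends, mapped them to mm10 with HISAT2 and counted reads on Ensembl release 90 genes by HTSeq-count. What was deposited is the raw count of reads per gene, not normalized. Tool versions and the strand setting of the counting are not given in the sources used here.

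Groups followed the sample titles. Rows of HTSeq summary categories (31.8% to 46.1% of recorded reads) were left out, which left 17457452 to 37999342 gene reads per library. The deposited counts were fitted in edgeR 4.0.16 under R 4.3.3 (filterByExpr with a minimum count of 10, TMM factors of 0.9868 to 1.019, glmQLFit with legacy = FALSE, glmQLFTest) over all 19041 genes that passed, with Benjamini-Hochberg adjustment and a threshold of 0.05. The size of the log2 fold change divided by the root of its F statistic gave the standard error. CPM are reads scaled to a TMM-adjusted library of 1000000. A count of 0 was taken to allow up to 3 reads, and "at least" folds set the control mean against 3 reads in the shallower *Eya1*cKO library. These limits cover counting error only. The scripts were tested on simulated data.

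Symbols were present for 52403 of 52636 identifiers. Coordinates and exonic lengths came from GENCODE M21 (GRCm38, the build of mm10 but a later release), and promoters from RefSeq. Replicate numbers of the labels were not shown to pair libraries (correlation of deviations 0.0062 over 19041 genes). Members and gene lists were chosen with earlier results of these data known. All members and other nicotinic subunits were to be named, with *Eya1*, genes overlapping a member, and at most the 3 called genes of smallest p per direction in each other list. Further genes named from the lists were chosen after their values were seen. The 145 genes of the lists were kept whole, and some of them are not reported here by name. Alternatives were other scalings, filters and tests (DESeq2 1.42.0 among them), a replicate block, leaving out each library, and the longest transcript as length.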

Additional observations from a re-analysis of the deposited data

How the results depend on the processing

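The number of genes changed was 1820, and it stayed within 1.5 times of that with DESeq2 size factors, library totals or at least 10 counts in every library. It was 1055 without a filter, 3054 with DESeq2's Wald test and 1096 with edgeR's earlier (legacy) fit, and ran from 23 to 7925 with a library left out (23 without control 1 and without control 2, 7414 without *Eya1*cKO 1 and 7925 without *Eya1*cKO 2). With the replicate number as a block it was 621, and the block called 0 nicotinic members. The numbers were not shown to pair libraries.

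The number of nicotinic members changed was 0 under each alternative except without *Eya1*cKO 1 (4) and without *Eya1*cKO 2 (3), a range of 0 to 4 over the libraries left out. The cause was not tested. Of the 75 alternative values for single members, 65 kept their direction and side of the threshold, 7 came past it and 3 reversed, all 10 with a library left out: *Chrna4* (-0.69, range -0.69 to 0.78) and *Chrnb2* (-0.01, range -0.01 to 1.30) without *Eya1*cKO 1, and *Chrnb4* (-0.50, range -0.50 to 2.38) without *Eya1*cKO 2. *Chrna3* ranged from 1.24 to 3.58, *Chrna5* from -2.96 to -0.61, *Chrna7* from 0.11 to 1.68 and *Chrnb1* from 0.86 to 1.28. *Chrna5* had no value with at least 10 counts in every library or without control 2. A left-out library leaves a genotype with 1 library, which is taken to vary like the other genotype. Depth limited *Chrna1*, *Chrna9* and *Chrng*, which were not tested.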
